A study of Mus musculus with 13 samples.

Results

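The mitosis genes described here are 39 genes that build or regulate the dividing cell's spindle, kinetochores and division machinery, chosen by their symbols from the 55421 genes in the deposited tables of a mouse study of HSPCs, the stem and progenitor cells of the blood. The choice named the genes and used no measured value, and all 39 were found in the tables. RNA was sequenced in bulk from bone marrow HSPCs of 4 genotypes: wild type with 2 libraries, Setd2 knockout with 2, Srsf2 mutated with 3, and the combination of both, called double mutant here, with 3. Setd2 encodes the methyltransferase that methylates histone H3 along transcribed genes, and Srsf2 encodes a splicing factor that is recurrently mutated in myelodysplastic syndrome. The series title ties both proteins to inflammatory signaling and suppressor cells in that disease.

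The bulk labels give the genotype only as far as stated above. For the 3 single-cell samples of the series, not used here, the protocol names the alleles Setd2 fl/fl and Srsf2 P95H/+ with Mx1-Cre, which the interferon inducer pIpC (polyinosinic-polycytidylic acid) switches on in blood-forming and other interferon-responsive cells. In that protocol the wild type animals carry Mx1-Cre as well, lineage-negative c-Kit-positive cells were taken, and a bone marrow transplant model was sampled 4 weeks after pIpC. Whether the bulk groups share those alleles, that treatment, that sort and that time was not stated, nor were the strain, the sex or the age of the mice. The labels do not say that the libraries of a group came from separate mice, so p-values measure only the spread between these libraries, which may be technical.

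Mitosis begins when Cdk1 bound to cyclins A and B is released from inhibition by Cdc25 phosphatases, and the Polo and Aurora kinases then drive spindle assembly. The spindle assembly checkpoint holds the anaphase-promoting complex inactive until kinetochores are attached, after which Cdc20 and Ube2c direct the destruction of cyclins and of securin, and separase cuts cohesin. Most of these genes are transcribed in G2 and M phase under the B-Myb, Foxm1 and DREAM complexes. Those complexes read the cell cycle genes homology region (CHR) close to the start site. The CCAAT box is a separate element that is common in the same promoters. In bone marrow, transcripts of this kind come from cycling progenitors, including early erythroid and early neutrophil precursors.

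The letters of those promoters are shown first because the members were chosen by function and share a promoter element that the choice did not use. RefSeq windows on GRCm38.p6, running from 250 bases before to 50 bases after each start, were available for 33 of the 39 members. The CHR core, TTTGAA or TTCGAA on either strand, was present in 26 of the 33 (78.8%), compared with 21.7% of the 27025 genes that had a window and 17.3% of the 12039 tested genes that had one. CCAAT on either strand was present in 25 of the 33 (75.8%), compared with 41.1% of all genes with a window. Both elements together were present in 69.7% of the members and in 8.61% of all genes with a window. In Anln, Aurka, Bub1, Cdc25b, Cdca8, Cenpa, Cenpf, Hmmr, Kif23, Kif4, Ndc80, Plk1 and Ttk each CHR core found began after the start. A match is a string of letters and not evidence of binding. The 100 bases that end just before the RefSeq start are printed 5′ to 3′ along the gene for 4 members. Among the members whose values are given in full below, these have the nearest CHR core that lies wholly before the start. Cores after the start were left out of that choice, although some lie nearer. Capitals mark CCAAT and the CHR core, written ATTGG and TTCAAA where they lie on the other strand. GENCODE M21 begins Cdk1, Cdc20 and Ube2c slightly upstream of the RefSeq start, inside the printed bases.
Cdk1, chr10:69352913-69353012, minus strand: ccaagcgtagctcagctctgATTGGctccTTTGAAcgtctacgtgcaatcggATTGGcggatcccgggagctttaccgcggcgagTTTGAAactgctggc
Cdc20, chr4:118437344-118437443, minus strand: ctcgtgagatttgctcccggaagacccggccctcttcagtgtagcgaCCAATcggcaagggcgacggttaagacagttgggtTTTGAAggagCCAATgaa
Top2a, chr11:99024190-99024289, minus strand: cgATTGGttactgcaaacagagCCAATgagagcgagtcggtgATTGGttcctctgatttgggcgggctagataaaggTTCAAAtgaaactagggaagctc
Ube2c, chr2:164769829-164769928, plus strand: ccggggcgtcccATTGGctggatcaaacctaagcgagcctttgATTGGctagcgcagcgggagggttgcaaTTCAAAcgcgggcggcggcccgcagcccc
The CHR core nearest to the start began 15 bases before the start in Cdk1, 18 in Cdc20, 23 in Top2a and 29 in Ube2c. The closest upstream CCAAT box lay 33, 35, 35 and 28 bases further out in the same order, counted between first bases. These 4 genes did not move alike: Cdk1 and Cdc20 were highest in wild type, Ube2c was about as high in double mutant as in wild type, and Top2a was lowest in double mutant. No window was used for Tpx2, Aurkb, Cdc25c, Kif20a, Incenp and Ccna2.

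Total counts ran from 32117387 to 50445434 per library, and each member had at least 481 counts in each library, so all 39 passed the filter on low counts and were tested. Levels are given as CPM, read counts scaled to a common library total that was adjusted by TMM (trimmed mean of M values), with the SD over libraries. Fold changes and adjusted p come from edgeR's quasi-likelihood test over all 10 libraries with Benjamini-Hochberg adjustment over 19289 tested genes, and "rose", "fell" and "called" mean an adjusted p under 0.05. Setd2 itself was at 145 to 158 CPM in wild type, 157 to 221 in Srsf2 mutated, 213 to 231 in the libraries labelled Setd2 knockout and 130 to 131 in double mutant, so it was above wild type in the single knockout and below Srsf2 mutated in double mutant, each without overlap. Counts over the whole gene, with no exon given for the deletion, are no check of the knockout labels. The TMM factors ran from 0.93 to 0.94 in wild type, 1.09 in each Setd2 knockout library, 1.01 to 1.05 in Srsf2 mutated and 0.96 in each double mutant library, so directions between genotypes depend on the scaling. Each comparison was therefore also fitted on plain library totals, an alternative chosen after seeing the data, whose counts are given apart; "under each alternative" refers to the others. On the second principal component the third Srsf2 mutated library (replicate 3) lay at 75.5, away from the pair at 36.9 and 42.5. Xist was at 472 to 499 CPM in wild type and at most 7.94 CPM in the other groups, and the Y-linked Ddx3y was without a count in wild type and Setd2 knockout and at 104 to 128 CPM in Srsf2 mutated and double mutant, so sex-linked expression and genotype cannot be told apart.

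Marker genes of several marrow cell types differed with genotype beside the mitosis genes. The summed level of 17 erythroid markers was lowest in wild type (975 to 1050 CPM), followed by Setd2 knockout (2986 to 3016), then Srsf2 mutated (6568 to 8150), and highest in double mutant (22790 to 24183). The globins with Slc4a1 and Alas2 (5 genes) made up most of the sum in Srsf2 mutated and double mutant, at 84.9 to 85.0 CPM in wild type, 201 to 208 in Setd2 knockout, 5626 to 7198 in Srsf2 mutated and 19094 to 20522 in double mutant. The other 12 erythroid markers summed to 890.2 to 965 CPM in wild type and 942 to 952 in Srsf2 mutated, where 6 were above and 6 below wild type by mean, against 2786 to 2808 in Setd2 knockout and 3661 to 3707 in double mutant. Among those below wild type in Srsf2 mutated were the erythroid transcription factors Klf1 (21.3 ± 5.25 against 50.9 ± 2.97 CPM) and Gata1 (29.1 ± 2.96 against 44.8 ± 1.57). The sum of early neutrophil markers (9 genes) ran the other way, from 26719 to 27222 CPM in wild type through 14453 to 15609 in Setd2 knockout and 9283 to 10914 in Srsf2 mutated down to 7466 to 7629 in double mutant. Mpo, Elane and Prtn3 made up most of it. Against that order, Cebpe and Fcnb were higher in double mutant (94.9 ± 0.926 and 216 ± 6.46 CPM) than in Srsf2 mutated (71.7 ± 14.3 and 114 ± 14.3). The 11 late neutrophil markers summed to 6376 to 6956 CPM in Setd2 knockout, below the 17675 to 24610 of wild type and the 15256 to 18892 of Srsf2 mutated, and to 35406 to 36189 in double mutant. Among them Mmp8 (159 ± 3.95 against 25.2 ± 2.43 CPM), Retnlg, Mmp9, Cxcr2, Ly6g and Ltf had higher means in Srsf2 mutated than in wild type. S100a8 (2544 ± 462 against 3979 ± 551 CPM), S100a9, Camp, Ngp and Lcn2 had lower means there. The 14 stem and progenitor markers summed to 1636 to 1791, 1748 to 1782, 1119 to 1162 and 837 to 862 CPM in the order of the erythroid sums, with Kit, the receptor used to sort such cells, at 422 ± 33.7 CPM in wild type and 163 ± 4.04 in double mutant. Ly6a and Slamf1 were instead higher in double mutant (26.2 ± 0.665 and 3.92 ± 0.149 CPM) than in wild type (8.48 ± 0.149 and 2.82 ± 0.300). B cell markers (10 genes) were highest in Srsf2 mutated, the group in which most members were lowest, at 1094 to 1170 CPM against 116 to 134 in wild type, 96.9 to 98.2 in Setd2 knockout and 300 to 314 in double mutant. The sum of mast cell and basophil markers (9 genes) was also highest there, at 814 to 1021 CPM against 223 to 236 in wild type, 232 to 234 in Setd2 knockout and 370 to 383 in double mutant. Prss34 (503 ± 49.3 CPM) and Mcpt8 (212 ± 30.6) made up most of it in Srsf2 mutated. Cma1, Tpsb2 and Mcpt4 were instead highest in double mutant, at means of 3.13, 2.64 and 1.54 CPM, and the other markers were highest in Srsf2 mutated. Eosinophil markers (7 genes) summed to 152 to 165 CPM in Setd2 knockout, 813 to 943 in wild type, 1263 to 1531 in Srsf2 mutated and 1742 to 1788 in double mutant. Among them Epx had its highest mean in wild type (324 ± 74.9 CPM against 239 ± 0.943 in double mutant). The sums for T and NK cells, monocytes and macrophages, dendritic cells, megakaryocytes, and endothelium and stroma had group means of 172 to 406, 1394 to 1940, 342 to 452, 96.0 to 233 and 81.4 to 124 CPM. Nkg7 made up most of the T and NK cell sum. Cd3e, Cd3g, Cd3d, Trac, Cd4 and Cd8a were instead highest in double mutant, at means of 1.42 to 3.68 CPM. Of the monocyte and macrophage list, Ccr2 was higher in Setd2 knockout than in wild type (401 ± 24.0 against 65.1 ± 3.33 CPM). Ly6c2 was lower there (657 ± 77.7 against 1208 ± 1.99 CPM). No marker of the first 4 lists was at 0 in any group, nor of the B cell and eosinophil lists; Mcpt4 was at 0 in Setd2 knockout, Cd3g in wild type and Gp1bb in all groups but Setd2 knockout. The part of these markers in the mitosis genes' differences was not tested, and in bulk samples fewer cells of a type and less RNA per cell cannot be told apart.

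Per kilobase of gene the members covered a wide range in each genotype. On the authors' FPKM scale (counts scaled by gene length and library total), Cdc25c was the lowest member in each group, at 2.99 ± 0.137, 4.11 ± 0.335, 3.81 ± 0.362 and 3.41 ± 0.142 FPKM (± SD) across the groups in the order listed above. Cdc20 was highest in wild type at 98.0 ± 2.03 FPKM, followed by Top2a at 83.2 ± 6.35 and Ccnb2 at 82.7 ± 2.64, which did not differ beyond their spread. Mki67 was highest in the other groups, at 90.3 ± 4.42, 89.9 ± 18.2 and 136 ± 3.08 FPKM, although in Srsf2 mutated it did not differ beyond its spread from Top2a (76.0 ± 5.39), Ccnb2 (73.3 ± 7.95) or Cdc20 (72.6 ± 3.72). The median member lay at 19.1 FPKM in wild type, at 21.3 in Srsf2 mutated, at 23.1 in Setd2 knockout and at 25.4 in double mutant, on a scale that does not carry the TMM adjustment. The order of the groups depended on that adjustment: the members' summed CPM was 5837 to 5973 in wild type and 5347 to 5487 in Setd2 knockout, while their share of all counts was 0.546% to 0.562% in wild type and 0.581% to 0.600% in Setd2 knockout.

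By mean CPM with TMM, 18 members were highest in wild type, 14 in double mutant, 7 in Setd2 knockout and none in Srsf2 mutated. Srsf2 mutated was the lowest group for 22 members, Setd2 knockout and wild type for 7 each, and double mutant for 3, namely Aurkb, Bub3 and Top2a. In the comparisons, 36 members were called at least once. The 3 that were not called in any of the 5 comparisons were Cdc25c, a phosphatase of Cdk1, Kif11, the motor that pushes spindle poles apart, and Ndc80, a kinetochore protein that grips microtubules. This holds with TMM. On plain library totals these 3 rose in Setd2 knockout against wild type, by 0.46, 0.31 and 0.25 on the log2 scale (adjusted p = 0.00675, 0.00422 and 0.0292).

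**Figure D1:**
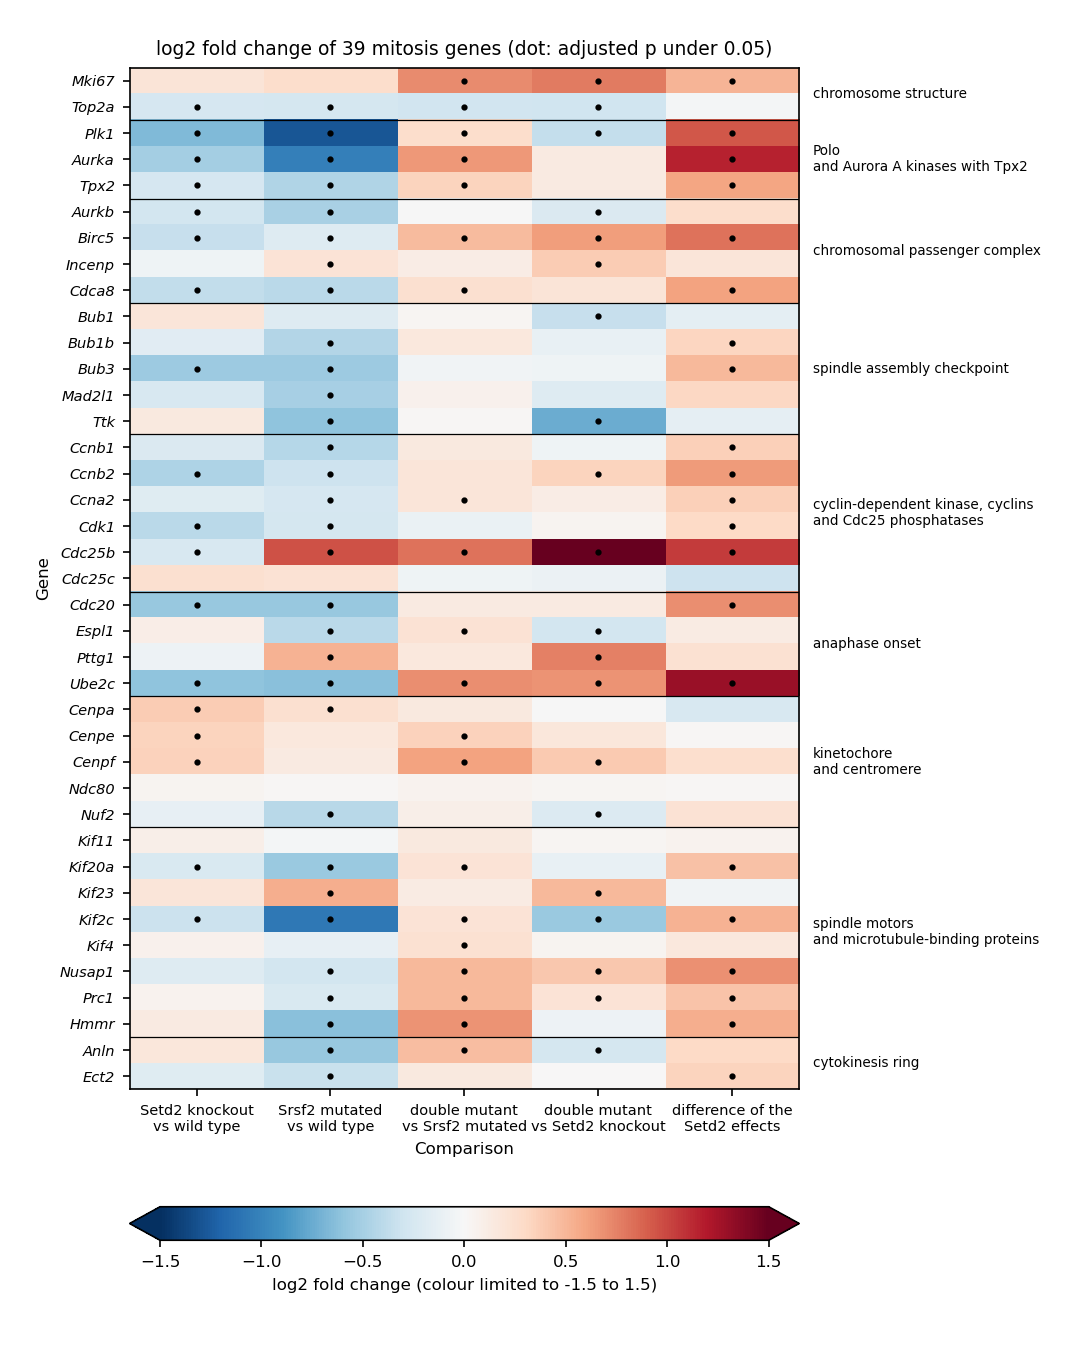
Log2 fold change of each of the 39 mitosis genes (rows, grouped by role) in 5 comparisons (columns), coloured from blue (lower in the group named first) to red (higher), with a dot where the adjusted p was under 0.05. Most dotted cells are blue for Srsf2 mutated against wild type (26 of 31) and red for double mutant against Srsf2 mutated (19 of 20).

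Setd2 knockout against wild type compared the single knockout label with wild type, and sex-linked expression differed between these groups as well. The kinases Plk1 and Aurka fell by 0.67 and 0.51 on the log2 scale, Ube2c and Cdc20 of the 4 anaphase onset members by 0.61 and 0.56, and the checkpoint protein Bub3 by 0.54. In the opposite direction Cenpa, Cenpe and Cenpf, all proteins of the centromere or kinetochore, rose by 0.38, 0.33 and 0.34. Of the 39 members, 15 fell and 3 rose (46.2% called), where 38.6% of all tested genes were called, 18.7% higher and 19.9% lower. The median member changed by -0.18 on the log2 scale and the median of all tested genes by 0.04. On plain library totals, which moved the median of all genes by 0.22, the balance turned to 15 members higher and 6 lower (5449 and 1974 of all genes), and the median member was at 0.03. The members' median minus that of all genes was -0.22 under both scalings. Rescaling moves all genes nearly alike, so this likeness was fixed in advance and tests nothing. Plk1, Aurka, Bub3, Ccnb2, Cdc20 and Ube2c fell and Cenpa, Cenpe and Cenpf rose under both, while the falls of the other 9, Cdk1, Birc5 and Cdca8 among them, were lost on library totals. With upper-quartile scaling 10 members fell and 7 rose, and with a stricter filter on low counts 10 fell and 9 rose. With that filter the members' median minus that of all genes was only -0.08. Without Setd2 knockout replicate 1 the count was 11 (9 lower), without Setd2 knockout replicate 2 it was 12 (9 lower), and without wild type replicate 1 the members that rose were 5 and without wild type replicate 2 they were 2. Of the 15, 9 fell under each alternative, while Aurkb, Cdc25b, Kif20a, Kif2c, Tpx2 and Top2a did not, and of the 3, Cenpe was lost without wild type replicate 2 (adjusted p = 0.11) and without Setd2 knockout replicate 1 (0.101).

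Srsf2 mutated against wild type compared the single Srsf2 mutant, and sex-linked expression differed between these groups as well. More members fell than rose. Plk1, Kif2c and Aurka were the members that fell furthest, by 1.28, 1.07 and 1.02 on the log2 scale. Cdc25b rose by 0.96 and Kif23 by 0.55, against the direction of most called members. In all, 26 members fell and 5 rose (79.5% called), where 56.3% of all tested genes were called, 28.5% higher and 27.8% lower. The median member changed by -0.30 and the median of all tested genes by 0.08. Plain library totals moved the median of all genes by 0.13, and 19 members then fell and 9 rose. Upper-quartile scaling gave 21 lower and 9 higher, and the stricter filter 19 lower and 9 higher. The members that rose numbered 3 without wild type replicate 1 and 8 without Srsf2 mutated replicate 3, the library that stood apart, where 27 fell. Of the 26, 19 fell under each alternative, and Ccnb2, Ccna2, Cdk1, Nusap1, Prc1, Top2a and Birc5 did not. Of the 5, Cenpa and Incenp did not keep their call.

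Where the Setd2 knockout was combined with the Srsf2 mutation, most called members were higher: in double mutant against Srsf2 mutated, 19 members rose and 1 fell (51.3% called), where 33.8% of all tested genes were called, 17.8% higher and 15.9% lower. Cdc25b, Mki67, Ube2c, Hmmr and Aurka rose by 0.81, 0.70, 0.69, 0.67 and 0.65 on the log2 scale. Top2a, the topoisomerase that untangles chromosomes, fell by 0.29. The median member changed by 0.18 and the median of all tested genes by 0.00. With plain library totals, which moved the median of all genes by -0.10, 12 rose and 2 fell. Without Srsf2 mutated replicate 1 the count was 13 (12 higher), and without Srsf2 mutated replicate 3 it was 24 (23 higher). Of the 19, 12 rose under each alternative, and Plk1, Ccna2, Kif20a, Kif2c, Kif4, Cdca8 and Espl1 did not. The authors' deposited table for this comparison calls none of the 39 members at an adjusted p under 0.05, its smallest being 0.0649 for Cdc25b, and the standard errors in it run from 0.145 to 0.500 where those of the fit here run from 0.0567 to 0.109.

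For double mutant against Setd2 knockout, groups that share the Setd2 knockout label and differ in Srsf2, there was no common direction. Sex-linked expression differed between these groups as well. Cdc25b rose by 2.01 on the log2 scale, 4.01 times higher in mean CPM, and Mki67, Pttg1, Ube2c and Birc5 rose by 0.78, 0.75, 0.67 and 0.62. Ttk, Kif2c and Plk1 fell by 0.74, 0.55 and 0.35. In all 11 members rose and 9 fell (51.3% called), where 51.8% of all tested genes were called, 26.0% higher and 25.8% lower, so the share called was near that of all genes. The median member changed by 0.03, a value that ranged from -0.03 to 0.08 over the alternatives and was -0.16 on plain library totals, which moved the median of all genes by -0.18 and gave 8 higher and 17 lower. The stricter filter gave 17 higher and 8 lower, and a fit of the compared groups alone gave 17 higher and 11 lower. Called under each alternative were 9 of the 11 and 6 of the 9, with Ccnb2, Prc1, Aurkb, Nuf2 and Anln the exceptions.

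The difference between the Setd2 effects, with the Srsf2 mutation and without it, was tested as 1 contrast. A positive value means that the change with the Setd2 knockout label was further up, or less far down, where Srsf2 was mutated. The Setd2 effects are differences between labelled groups, among which sex-linked expression differed as well. In 21 members the difference was positive and called and in none was it negative and called (53.8% called), where 31.9% of all tested genes were called, 16.7% higher and 15.2% lower. Ube2c, Aurka, Cdc25b and Plk1 had the largest differences, at 1.30, 1.16, 1.05 and 0.93 on the log2 scale. The median member lay at 0.33 and the median of all tested genes at -0.07. On plain library totals, which moved the median of all genes by -0.32, the count turned to 9 positive and 8 negative with the median member at 0.01, while 1844 of all genes were positive and 5723 negative. The members' median minus that of all genes was 0.39 there and with TMM. Rescaling moves all genes nearly alike, so this likeness was fixed in advance. With the stricter filter that value was 0.26. Ube2c, Aurka, Cdc25b, Plk1, Birc5, Cdc20, Nusap1, Ccnb2 and Tpx2 were positive and called under both scalings. Upper-quartile scaling, which moved the median of all genes by -0.15, left 15 positive and 2 negative, and DESeq2 called 23 positive. The count was 14 without Setd2 knockout replicate 1, 14 without Setd2 knockout replicate 2 and 25 without Srsf2 mutated replicate 3, and 13 of the 21 were called under each alternative. Comparisons that share a genotype share its libraries and are not independent, and the difference between the Setd2 effects uses all 10.

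Cdk1 (ENSMUSG00000019942, chr10:69335146-69352938, minus strand, GRCm38), the kinase that starts mitosis, was at 171 and 165 CPM in the wild type libraries, 127 and 129 in those with Setd2 knockout, 137, 140.0 and 145 in those with Srsf2 mutated, and 136, 129 and 128 in the double mutants. The wild type libraries were above all others, and the Srsf2 mutated libraries stood between wild type and the Setd2 knockout libraries. Cdk1 fell in Setd2 knockout against wild type (log2 change -0.40 with SE 0.072, adjusted p = 0.000397) and in Srsf2 mutated against wild type (log2 change -0.26 with SE 0.065, adjusted p = 0.00301), a call lost with the stricter filter (adjusted p = 0.084). Its difference between the Setd2 effects was 0.30 (SE 0.092, adjusted p = 0.0219), which was lost with upper-quartile scaling (adjusted p = 0.229), with no filter (0.0609), with the stricter filter (0.0509) and without any 1 of 5 libraries (0.0661 to 0.204). On plain library totals neither fall against wild type was called (adjusted p = 0.0545 and 0.109). There Cdk1 fell in double mutant against Srsf2 mutated (log2 change -0.20 with SE 0.058, adjusted p = 0.0117).

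Ccnb1 (ENSMUSG00000041431, chr13:100778650-100786570, minus strand), the B-type cyclin that activates Cdk1, was at 157 and 134 CPM in the wild type libraries, 128 and 123 in those with Setd2 knockout, 107, 102 and 115 in those with Srsf2 mutated, and 120.1, 118 and 120.1 in the double mutants. No group overlapped wild type, and the Srsf2 mutated libraries were the lowest. Ccnb1 fell in Srsf2 mutated against wild type (log2 change -0.43 with SE 0.078, adjusted p = 0.000205) and did not pass the test in Setd2 knockout against wild type (log2 change -0.21 with SE 0.086, adjusted p = 0.0589). Its difference between the Setd2 effects, 0.36 (SE 0.11, adjusted p = 0.0199), was lost with upper-quartile scaling (adjusted p = 0.144) and without any 1 of 4 libraries (0.0802 to 0.156). Ccnb2, the second B-type cyclin, was lowest in Setd2 knockout (97.9 ± 1.62 CPM against 135 ± 3.64 in wild type). Ccna2, which acts from S phase to early mitosis, had means from 155 ± 3.07 CPM in Srsf2 mutated to 183 ± 2.36 in wild type. Low-count rows named as pseudogene copies stand in the tables for Ccnb1 and Ccnb2, and reads may have been split between copies and genes.

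Cdc25b (ENSMUSG00000027330, chr2:131186949-131198497, plus strand), the phosphatase that first activates Cdk1 at the centrosome, had the largest ratio of highest to lowest group mean of the 39. Its level was 43.2 and 41.3 CPM in the wild type libraries, 36.1 and 35.5 in those with Setd2 knockout, 77.5, 84.3 and 84.4 in those with Srsf2 mutated, and 138, 145 and 148 in the double mutants. The double mutant libraries were the highest, the Srsf2 mutated libraries came next, and no group overlapped another. Cdc25b rose in Srsf2 mutated against wild type (log2 change 0.96 with SE 0.074, adjusted p = 2.58e-08), in double mutant against Srsf2 mutated (log2 change 0.81 with SE 0.064, adjusted p = 5.63e-08) and in double mutant against Setd2 knockout (log2 change 2.01 with SE 0.077, adjusted p = 3.97e-12). In Setd2 knockout against wild type it fell (log2 change -0.24 with SE 0.08, adjusted p = 0.0278), a call lost under 7 alternatives. Cdc25c, with means from 15.7 ± 0.797 CPM in wild type to 18.6 ± 1.59 in Setd2 knockout, was not called in any comparison with TMM.

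Plk1 (ENSMUSG00000030867, chr7:122159439-122169873, plus strand), the Polo kinase that matures centrosomes and promotes mitotic entry, showed the deepest fall of any member. It was at 123 and 132 CPM in the wild type libraries, 77.2 and 83.1 in those with Setd2 knockout, 52.2, 48.5 and 56.5 in those with Srsf2 mutated, and 61.8, 63.5 and 63.0 in the double mutants. The groups did not overlap, and the order was wild type, Setd2 knockout, double mutant and Srsf2 mutated. Plk1 fell in Setd2 knockout (log2 change -0.67 with SE 0.086, adjusted p = 1.94e-05) and in Srsf2 mutated (log2 change -1.28 with SE 0.078, adjusted p = 1.58e-09), both against wild type, and was 2.43 times lower in Srsf2 mutated by mean CPM. The double mutant was above Srsf2 mutated (log2 change 0.26 with SE 0.071, adjusted p = 0.00942). That call was lost without Srsf2 mutated replicate 1 (adjusted p = 0.0628) and on plain library totals (0.0756). Plk1 was lower in double mutant than in Setd2 knockout (log2 change -0.35 with SE 0.078, adjusted p = 0.00126). Its difference between the Setd2 effects was 0.93 (SE 0.11, adjusted p = 9.51e-06).

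Aurka (ENSMUSG00000027496, chr2:172356190-172370535, minus strand), the Aurora kinase of spindle poles, was at 103 and 105 CPM in the wild type libraries, 73.6 and 73.2 in those with Setd2 knockout, 46.7, 50.1 and 57.1 in those with Srsf2 mutated, and 81.3, 81.5 and 79.1 in the double mutants. Again the groups did not overlap, with Srsf2 mutated lowest and double mutant between Setd2 knockout and wild type. Aurka fell in Setd2 knockout (log2 change -0.51 with SE 0.089, adjusted p = 0.000342) and in Srsf2 mutated (log2 change -1.02 with SE 0.081, adjusted p = 3.18e-08) against wild type, and rose in double mutant against Srsf2 mutated (log2 change 0.65 with SE 0.074, adjusted p = 3.55e-06). Against Setd2 knockout the double mutant did not pass the test (log2 change 0.14 with SE 0.082, adjusted p = 0.181). Tpx2, which activates Aurka on microtubules, had the same order of groups, from 144 ± 4.61 CPM in Srsf2 mutated through 165 ± 0.901 in Setd2 knockout and 181 ± 3.65 in double mutant to 197 ± 0.389 in wild type.

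**Figure D2:**
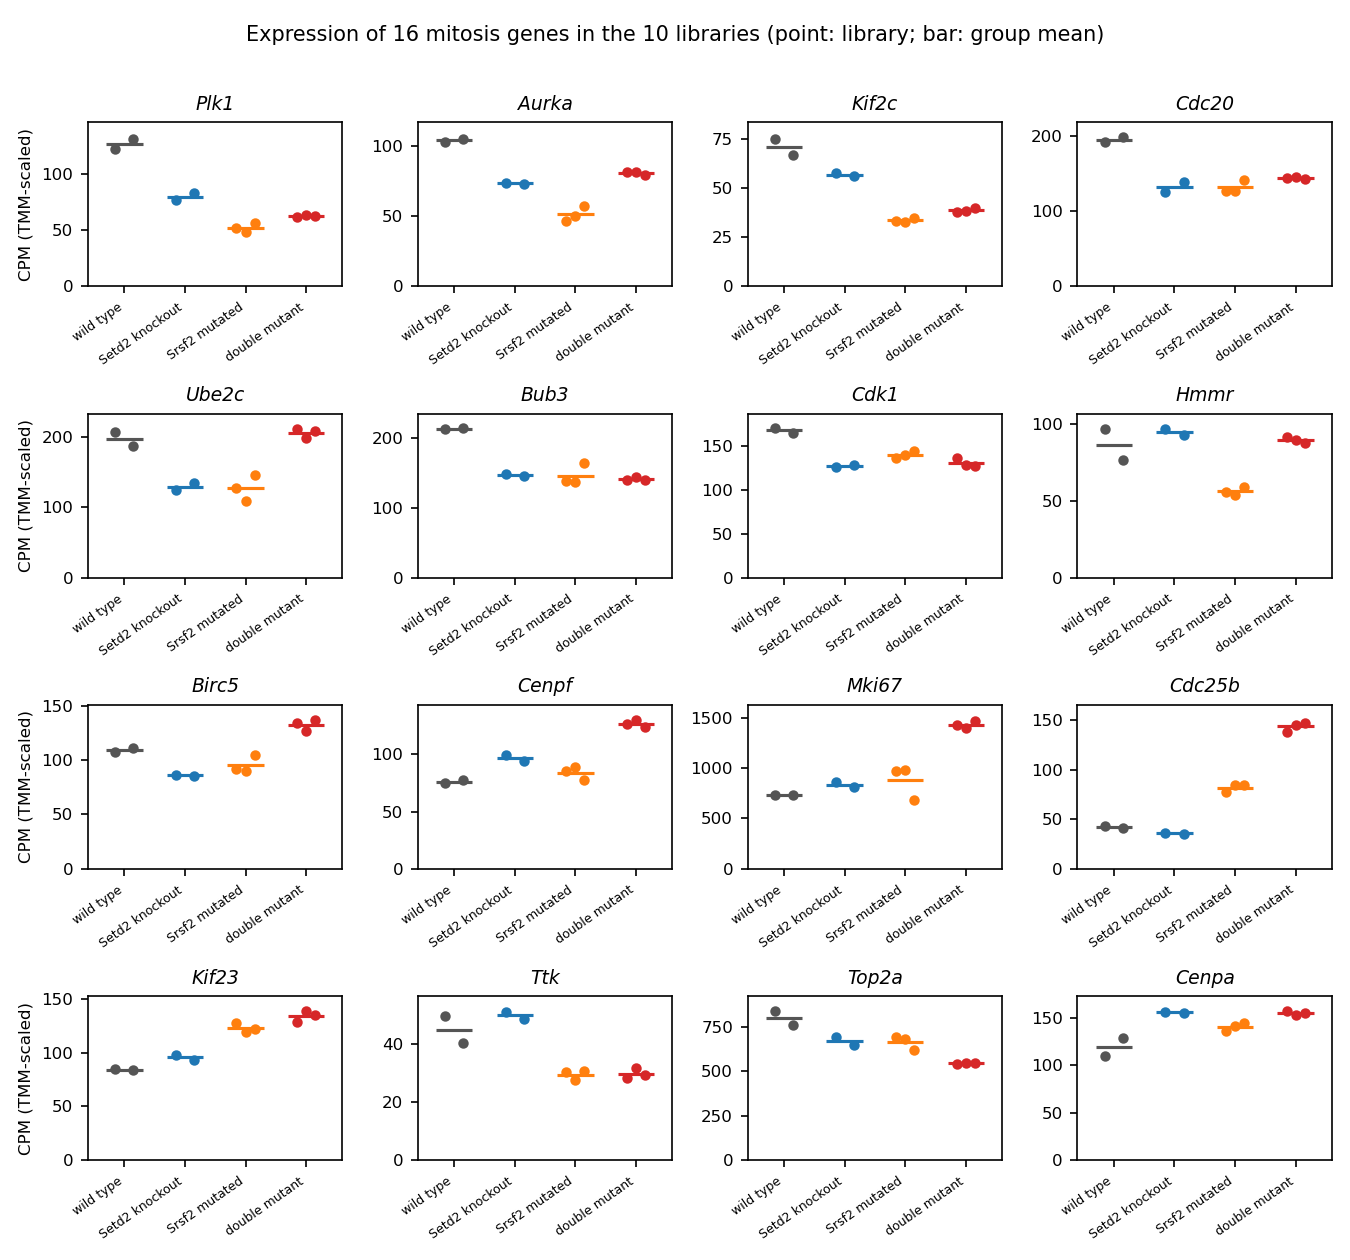
Level in CPM (vertical axis, linear from 0) of 16 mitosis genes in each of the 10 libraries, by genotype, with points for libraries and bars for group means. Plk1, Aurka and Kif2c are lowest in the 3 Srsf2 mutated libraries, while Mki67 and Cdc25b are highest in the 3 double mutant libraries.

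The spindle assembly checkpoint was lower in Srsf2 mutated than in wild type in 4 of its 5 members, and none of the 5 was called in double mutant against Srsf2 mutated. Bub3 (ENSMUSG00000066979, chr7:131560222-131571895, plus strand), which recruits Bub1 and the BubR1 kinase Bub1b to kinetochores, was at 213 and 214 CPM in the wild type libraries, 149 and 145 in those with Setd2 knockout, 138, 137 and 164 in those with Srsf2 mutated, and 139, 144 and 139.6 in the double mutants. The wild type libraries stood above all others, and double mutant and Srsf2 mutated overlapped. Bub3 fell in Setd2 knockout (log2 change -0.54 with SE 0.086, adjusted p = 0.000139) and Srsf2 mutated (log2 change -0.54 with SE 0.077, adjusted p = 2.02e-05) against wild type. Its difference between the Setd2 effects was 0.49 (SE 0.11, adjusted p = 0.00301). On plain library totals that difference was 0.17 and was not called (adjusted p = 0.22).

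Ttk (ENSMUSG00000038379, chr9:83834689-83872389, plus strand), the Mps1 kinase that starts checkpoint signaling, was at 49.6 and 40.3 CPM in the wild type libraries, 51.2 and 48.6 in those with Setd2 knockout, 30.3, 27.5 and 30.8 in those with Srsf2 mutated, and 28.3, 31.8 and 29.4 in the double mutants. Setd2 knockout and wild type overlapped, as did Srsf2 mutated and double mutant, and the second pair lay below the first. Ttk fell in Srsf2 mutated against wild type (log2 change -0.61 with SE 0.099, adjusted p = 7.77e-05) and in double mutant against Setd2 knockout (log2 change -0.74 with SE 0.098, adjusted p = 1.01e-05), the largest fall of any member in that comparison. Mad2l1, which binds Cdc20, fell from 116 ± 6.42 CPM in wild type to 81.7 ± 9.18 in Srsf2 mutated, and Bub1b from 181 ± 10.6 to 133 ± 10.6. With TMM, Bub1 was called only in double mutant against Setd2 knockout, where it fell from 92.5 ± 4.73 to 72.8 ± 2.82 CPM.

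Among the factors of anaphase onset, Cdc20 and Ube2c were both lower in each single mutant than in wild type, and Ube2c reached the wild type range in double mutant. Cdc20 (ENSMUSG00000006398, chr4:118432901-118437352, minus strand), the activator of the anaphase-promoting complex, was at 192 and 199 CPM in the wild type libraries, 125 and 139 in those with Setd2 knockout, 127, 127 and 142 in those with Srsf2 mutated, and 145, 146 and 144 in the double mutants. Wild type lay above the other groups, which lay within 125 to 146 CPM. It fell in Setd2 knockout (log2 change -0.56 with SE 0.08, adjusted p = 4.80e-05) and in Srsf2 mutated (log2 change -0.56 with SE 0.072, adjusted p = 7.01e-06) against wild type and was not called in double mutant against either single mutant (adjusted p = 0.138 and 0.142).

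Ube2c (ENSMUSG00000001403, chr2:164769898-164778822, plus strand), the ubiquitin-conjugating enzyme of that complex, was at 206 and 187 CPM in the wild type libraries, 124 and 134 in those with Setd2 knockout, 127, 109 and 145 in those with Srsf2 mutated, and 210.3, 198 and 208 in the double mutants. Wild type and double mutant shared the range from 187 to 210.3 CPM, above each library of the single mutants. Ube2c fell in Setd2 knockout (log2 change -0.61 with SE 0.11, adjusted p = 0.000319) and in Srsf2 mutated (log2 change -0.63 with SE 0.095, adjusted p = 3.93e-05) against wild type. It rose in double mutant against Srsf2 mutated (log2 change 0.69 with SE 0.087, adjusted p = 1.11e-05) and against Setd2 knockout (log2 change 0.67 with SE 0.098, adjusted p = 2.78e-05), and its difference between the Setd2 effects was the largest of all members, 1.30 (SE 0.14, adjusted p = 2.38e-06). Of its exon bases 22.8% overlap Tnnc2 on the opposite strand, which averaged 0.1 counts.

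Pttg1 (ENSMUSG00000020415, chr11:43420250-43426251, minus strand), securin, which holds separase inactive, was at 11.6 and 12.6 CPM in the wild type libraries, 10.4 and 12.7 in those with Setd2 knockout, 16.7, 16.2 and 19.2 in those with Srsf2 mutated, and 19.8, 17.7 and 20.7 in the double mutants. It was higher in each Srsf2 mutated and double mutant library than in each library of the other groups. Pttg1 rose in Srsf2 mutated against wild type (log2 change 0.52 with SE 0.13, adjusted p = 0.00232) and in double mutant against Setd2 knockout (log2 change 0.75 with SE 0.13, adjusted p = 0.000102). Espl1, separase itself, went the other way, from 144 ± 11.8 CPM in wild type to 109 ± 10.4 in Srsf2 mutated and from 154 ± 0.0512 in Setd2 knockout to 126 ± 2.04 in double mutant, and fell in both of these comparisons (adjusted p = 0.000537 and 0.00817).

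Kinetochore and centromere genes held the 3 members that rose in Setd2 knockout against wild type with TMM, out of 5 in the role. Cenpa (ENSMUSG00000029177, chr5:30666777-30674830, plus strand), the histone H3 variant that marks centromeres, was at 110.2 and 128 CPM in the wild type libraries, 156 and 155 in those with Setd2 knockout, 136, 141 and 144 in those with Srsf2 mutated, and 158, 153 and 155 in the double mutants. Wild type was the lowest group, without overlap. Cenpa rose in Setd2 knockout (log2 change 0.38 with SE 0.08, adjusted p = 0.00134) and in Srsf2 mutated (log2 change 0.24 with SE 0.073, adjusted p = 0.0127) against wild type, the second call being lost without wild type replicate 1 (adjusted p = 0.225) and in a fit of those groups alone (0.0509).

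Cenpe (ENSMUSG00000045328, chr3:135212537-135273611, plus strand), the kinetochore motor that brings chromosomes to the spindle equator, was at 101 and 91.7 CPM in the wild type libraries, 126 and 117 in those with Setd2 knockout, 114, 115 and 94.3 in those with Srsf2 mutated, and 139, 138 and 134 in the double mutants. The double mutant libraries were the highest, and Srsf2 mutated overlapped wild type. It rose in Setd2 knockout against wild type (log2 change 0.33 with SE 0.095, adjusted p = 0.012) and in double mutant against Srsf2 mutated (log2 change 0.34 with SE 0.077, adjusted p = 0.00243). Cenpf (ENSMUSG00000026605, chr1:189640606-189688086, minus strand), a large kinetochore protein, was at 74.9 and 77.8 CPM in the wild type libraries, 99.5 and 94.0 in those with Setd2 knockout, 85.3, 89.0 and 77.2 in those with Srsf2 mutated, and 127, 130.0 and 124 in the double mutants. Double mutant lay above all other libraries, and Srsf2 mutated replicate 3 lay within the wild type range. Cenpf rose in Setd2 knockout against wild type (log2 change 0.34 with SE 0.082, adjusted p = 0.00365), in double mutant against Srsf2 mutated (log2 change 0.60 with SE 0.067, adjusted p = 3.06e-06) and in double mutant against Setd2 knockout (log2 change 0.39 with SE 0.075, adjusted p = 0.000351). Nuf2, the partner of Ndc80, fell from 72.7 ± 0.141 CPM in wild type to 54.4 ± 4.70 in Srsf2 mutated. Ndc80 stayed between 43.6 and 49.6 CPM in all 10 libraries and was not called with TMM.

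The chromosomal passenger complex, which corrects faulty attachments and later marks the division plane, did not move as 1 unit. Birc5 (ENSMUSG00000017716, chr11:117849251-117855743, plus strand), survivin, was at 108 and 111 CPM in the wild type libraries, 86.5 and 85.9 in those with Setd2 knockout, 92.3, 89.6 and 105 in those with Srsf2 mutated, and 134, 127 and 137 in the double mutants. Double mutant was the highest group and Setd2 knockout the lowest, and Srsf2 mutated lay between Setd2 knockout and wild type without overlap. Birc5 fell in Setd2 knockout (log2 change -0.34 with SE 0.085, adjusted p = 0.0046) and in Srsf2 mutated (log2 change -0.19 with SE 0.077, adjusted p = 0.0437) against wild type, the second call being lost under 9 alternatives (adjusted p from 0.0724 to 0.515). It rose in double mutant against Srsf2 mutated (log2 change 0.47 with SE 0.069, adjusted p = 5.56e-05) and against Setd2 knockout (log2 change 0.62 with SE 0.078, adjusted p = 5.69e-06). Aurkb, the kinase of the complex, fell from 159.6 ± 9.56 CPM in wild type to 114 ± 4.92 in Srsf2 mutated and was at 114 ± 4.21 in double mutant. Cdca8, borealin, fell from 168 ± 2.11 CPM in wild type to 131 ± 0.907 in Setd2 knockout and 127 ± 14.8 in Srsf2 mutated. Incenp, the scaffold, was higher in double mutant (279.7 ± 9.44 CPM) than in Setd2 knockout (215 ± 7.97, adjusted p = 0.000815). That call was lost on plain library totals (adjusted p = 0.058).

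Among the spindle motors and microtubule-binding proteins, Kif2c and Kif23 went opposite ways. Kif2c (ENSMUSG00000028678, chr4:117159639-117182639, minus strand), a motor that takes microtubules apart at centromeres, was at 75.4 and 66.8 CPM in the wild type libraries, 57.7 and 56.2 in those with Setd2 knockout, 33.6, 33.0 and 34.8 in those with Srsf2 mutated, and 38.2, 38.6 and 39.8 in the double mutants. The order was wild type, Setd2 knockout, double mutant and Srsf2 mutated, without overlap. Kif2c fell in Srsf2 mutated against wild type (log2 change -1.07 with SE 0.078, adjusted p = 1.26e-08) and in double mutant against Setd2 knockout (log2 change -0.55 with SE 0.079, adjusted p = 2.13e-05). Its fall in Setd2 knockout against wild type (log2 change -0.32 with SE 0.086, adjusted p = 0.00801) was lost without wild type replicate 1, Setd2 knockout replicate 1 or Setd2 knockout replicate 2 (adjusted p from 0.0593 to 0.0944), and its rise in double mutant against Srsf2 mutated (log2 change 0.20 with SE 0.072, adjusted p = 0.0393) was lost under 7 alternatives.

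Kif23 (ENSMUSG00000032254, chr9:61915905-61946774, minus strand), the motor of the central spindle that cytokinesis needs, was at 84.4 and 84.1 CPM in the wild type libraries, 97.8 and 93.3 in those with Setd2 knockout, 127, 119.6 and 122 in those with Srsf2 mutated, and 128, 138 and 135 in the double mutants. Each Srsf2 mutated and double mutant library was above each library of the other groups. Kif23 rose in Srsf2 mutated against wild type (log2 change 0.55 with SE 0.068, adjusted p = 5.59e-06) and in double mutant against Setd2 knockout (log2 change 0.49 with SE 0.068, adjusted p = 1.70e-05). With TMM it was not called in Setd2 knockout against wild type or in double mutant against Srsf2 mutated (adjusted p = 0.0637 and 0.13). On plain library totals Kif23 rose in Setd2 knockout against wild type (log2 change 0.40 with SE 0.075, adjusted p = 0.000636). Its difference between the Setd2 effects was then negative and called (-0.38 with SE 0.097, adjusted p = 0.00609).

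Hmmr (ENSMUSG00000020330, chr11:40701395-40733422, minus strand), a spindle-associated hyaluronan receptor, was at 96.9 and 76.4 CPM in the wild type libraries, 96.8 and 93.2 in those with Setd2 knockout, 55.9, 54.2 and 59.0 in those with Srsf2 mutated, and 92.0, 90.0 and 87.9 in the double mutants. Only the Srsf2 mutated libraries were low, below each library of the other groups. Hmmr fell in Srsf2 mutated against wild type (log2 change -0.62 with SE 0.089, adjusted p = 2.19e-05) and rose in double mutant against Srsf2 mutated (log2 change 0.67 with SE 0.081, adjusted p = 6.81e-06). Nusap1, which bundles spindle microtubules, rose from 84.0 ± 4.08 CPM in Srsf2 mutated to 118 ± 2.31 in double mutant, and Prc1, which cross-links the central spindle, from 67.6 ± 2.78 to 94.4 ± 3.99. Kif20a fell from 87.3 ± 0.825 CPM in wild type to 59.5 ± 3.09 in Srsf2 mutated, and 29.3% of its exon bases overlap Cdc23 on the opposite strand, whose reads cannot be told apart without strand. With TMM, Kif4, a chromosome-bound motor on the X chromosome, was called only in double mutant against Srsf2 mutated (73.6 ± 3.55 against 62.9 ± 4.22 CPM), and Kif11 was not called (219 to 252 CPM over all libraries). Exons of Kif4, Ccna2, Prc1 and Cdc25c also overlap genes on the opposite strand, by 15.1%, 12.5%, 11.1% and 12.7% of their bases.

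Of the cytokinesis genes, Anln, the anillin scaffold of the contractile ring, was at 97.4 ± 3.89 CPM in wild type and 109 ± 6.18 in Setd2 knockout, fell to 65.8 ± 4.77 in Srsf2 mutated and was at 90.7 ± 3.61 in double mutant. It rose in double mutant against Srsf2 mutated (log2 change 0.46 with SE 0.07, adjusted p = 8.36e-05). Ect2, the exchange factor that activates RhoA at the ring, fell from 94.6 ± 7.83 CPM in wild type to 75.3 ± 1.83 in Srsf2 mutated (adjusted p = 0.00187).

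The chromosome structure genes Mki67 and Top2a, the most abundant members by count, parted in the double mutant. Mki67 (ENSMUSG00000031004, chr7:135689784-135716361, minus strand), the surface coat of mitotic chromosomes and the usual marker of cycling cells, was at 728 and 734 CPM in the wild type libraries, 860.2 and 807 in those with Setd2 knockout, 970.5, 977 and 687 in those with Srsf2 mutated, and 1424, 1401 and 1466 in the double mutants. The double mutant libraries were the highest, Srsf2 mutated replicate 3 was below the wild type libraries, and the other Srsf2 mutated libraries were above them. Mki67 rose in double mutant against Srsf2 mutated (log2 change 0.70 with SE 0.1, adjusted p = 4.28e-05) and against Setd2 knockout (log2 change 0.78 with SE 0.11, adjusted p = 2.79e-05). It did not pass the test in Setd2 knockout (log2 change 0.19 with SE 0.12, adjusted p = 0.239) or Srsf2 mutated (log2 change 0.26 with SE 0.11, adjusted p = 0.0561) against wild type. On plain library totals it rose in both (adjusted p = 0.0206 and 0.00973). Its difference between the Setd2 effects, 0.51 (SE 0.16, adjusted p = 0.0205), was lost with upper-quartile scaling (adjusted p = 0.0871), with the stricter filter (0.0573) and without any 1 of 3 libraries (0.0512 to 0.114).

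Top2a (ENSMUSG00000020914, chr11:98992943-99024189, minus strand) was at 839.9 and 759 CPM in the wild type libraries, 693 and 649 in those with Setd2 knockout, 693, 682 and 623 in those with Srsf2 mutated, and 541, 549 and 547 in the double mutants. Wild type was the highest group, double mutant the lowest, and the single mutants overlapped each other between them. Top2a fell in double mutant against Srsf2 mutated (log2 change -0.29 with SE 0.063, adjusted p = 0.00214) and against Setd2 knockout (log2 change -0.30 with SE 0.07, adjusted p = 0.00201). Its falls in Setd2 knockout (log2 change -0.25 with SE 0.078, adjusted p = 0.0176) and Srsf2 mutated (log2 change -0.26 with SE 0.07, adjusted p = 0.00473) against wild type were each lost with upper-quartile scaling (adjusted p = 0.114 and 0.0586) and with the stricter filter (0.154 and 0.144), and under 3 and 2 other alternatives.

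The parting of Mki67 and Top2a is visible within each library, where no scaling between libraries enters. The ratio of Mki67 to Top2a counts was 0.867 and 0.967 in wild type, 1.24 in each Setd2 knockout library, 1.40, 1.43 and 1.10 in Srsf2 mutated, and 2.63, 2.55 and 2.68 in double mutant. Mki67 made up 12.2% and 12.6% of all member counts in wild type and 22.7% to 23.4% in double mutant. Against a list of 36 DNA replication genes, the summed counts of the 39 members gave ratios of 0.804 and 0.775 for wild type, 0.881 and 0.846 for the Setd2 knockout libraries, 0.872, 0.874 and 0.799 for Srsf2 mutated, and 1.20, 1.21 and 1.20 for the double mutants. Without Mki67 and Top2a the ratio was 0.811 to 0.827 in double mutant and 0.577 to 0.632 in the other 7 libraries. With TMM, the members without these 2 genes summed to means of 4375, 3912, 3589 and 4249 CPM. The order is wild type, Setd2 knockout, Srsf2 mutated and double mutant. The DNA replication genes summed to 7479, 6275, 6057 and 5179 CPM in the same order. The higher ratio against wild type thus went with a lower replication sum. These ratios were chosen after their values were seen and are given as descriptions with no test.

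**Figure D3:**
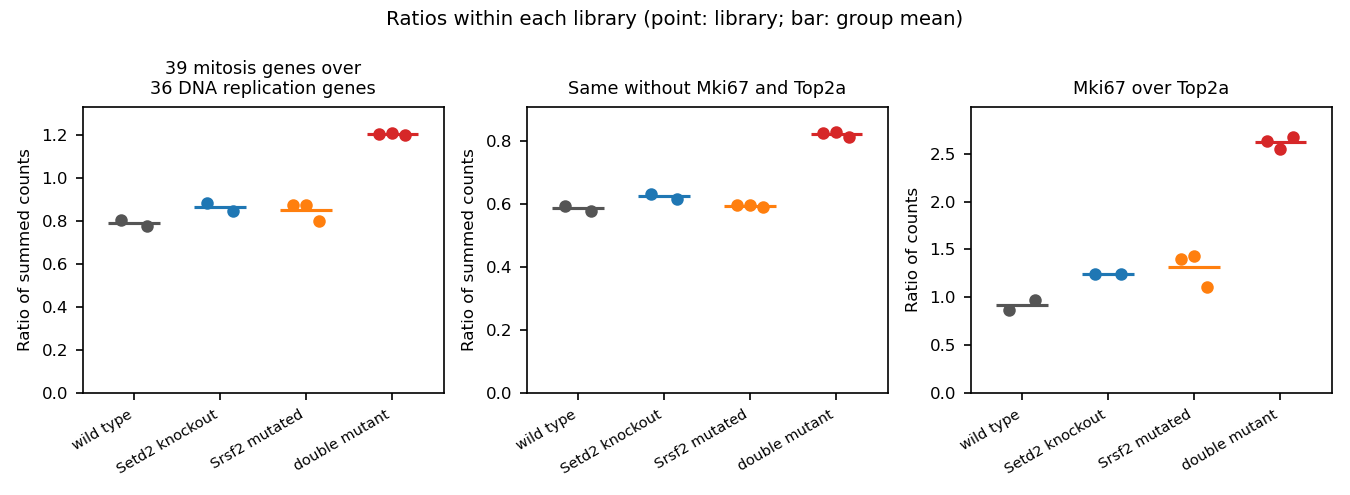
Ratios of counts within each of the 10 libraries (vertical axis, linear from 0), by genotype, with points for libraries and bars for group means. Left, the 39 mitosis genes over 36 DNA replication genes; middle, the same without Mki67 and Top2a; right, Mki67 over Top2a. The 3 double mutant libraries stand above the other 7 in each panel. The summed DNA replication genes were lowest in double mutant (5121 to 5233 CPM with TMM).

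Other cell cycle genes, in lists chosen beside the members, gave mixed counts in double mutant against Srsf2 mutated. Of 174 genes in 9 other cell cycle lists, 35 rose and 47 fell in that comparison, with a median of -0.04. Of all tested genes 17.8% rose and 15.9% fell. On plain library totals 22 of the 174 rose and 67 fell, where 2816 of all genes rose and 4547 fell. The 36 DNA replication genes had 4 that rose and 17 that fell, with Mcm3, a subunit of the replicative helicase, falling by 0.46 and Pold1, the catalytic subunit of polymerase delta, by 0.50, while Rrm2, of ribonucleotide reductase, rose by 0.32. Among 31 other spindle and cytokinesis genes 8 rose and 5 fell, with Dlgap5, a spindle protein, rising by 0.63 and Kif14, a cytokinesis motor, by 0.63. Wapl, which releases cohesin from chromosomes, rose by 0.78, and Fzr1, the late mitotic and G1 activator of the anaphase-promoting complex, by 0.74. The difference in direction between these lists and the members was not tested.

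In Srsf2 mutated against wild type 86 of the 174 genes fell and 28 rose, where 27.8% of all tested genes fell and 28.5% rose. With plain library totals these were 59 and 38, where 4127 of all genes fell and 6356 rose. DNA replication genes had 23 that fell and 4 that rose, with Cdt1, the licensing factor, falling by 0.85. Of the 12 genes of the Foxm1, B-Myb and DREAM complexes 9 fell and none rose, including Tfdp1, the partner of E2F, which fell by 0.48. Mis12, a kinetochore scaffold, fell by 1.36, and Cdc23, a subunit of the anaphase-promoting complex, by 0.93. CDK inhibitors had 5 of 9 that rose, with Cdkn1a, the p21 inhibitor, rising by 2.84 (109 CPM against 15.2 in wild type) and Cdkn1b, p27, by 0.998. Wee1, the kinase that restrains Cdk1, fell by 0.81.

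Setd2 knockout against wild type called 55 of the 174 lower and 30 higher, where 19.9% of all tested genes were lower and 18.7% higher. That balance turned to 20 lower and 55 higher on plain library totals, where 1974 of all genes were lower and 5449 higher. E2f2 and Ccnd3, both of the entry to S phase, fell by 1.03 and 0.93, while Ccne1, cyclin E, rose by 0.87. Bora, the cofactor through which Aurka activates Plk1, rose by 0.88 and Racgap1, the partner of Kif23, fell by 0.58. In double mutant against Setd2 knockout 74 of the 174 fell and 31 rose, where 25.8% of all tested genes fell and 26.0% rose. On plain library totals 111 fell and 17 rose, where 6647 of all genes fell and 3980 rose. With TMM, E2f2 rose by 2.90, Ube2s, which extends ubiquitin chains after Ube2c, by 0.92, and Myc fell by 1.58. Mis12 fell by 1.14 in this comparison and Bora by 0.84.

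**Figure D4:**
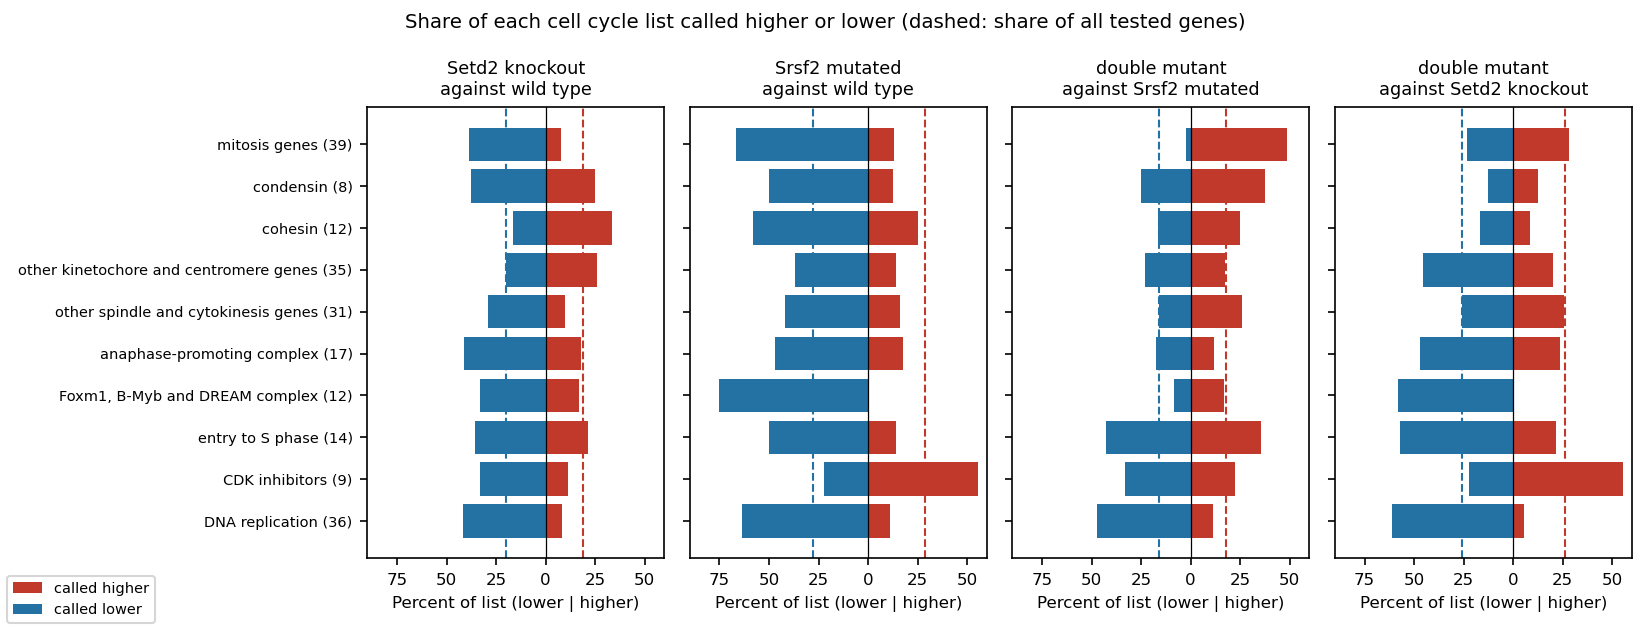
Percent of each cell cycle list called lower (blue, to the left) or higher (red, to the right) in 4 comparisons, with the number of tested genes in brackets and dashed lines at the shares of all tested genes. In double mutant against Srsf2 mutated the mitosis genes have 19 of 39 higher and the DNA replication genes 17 of 36 lower.

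Members with and without a CHR core in their window can be set side by side. In double mutant against Srsf2 mutated, 13 of the 26 members with a CHR core rose and 1 fell, with a median of 0.19, and 3 of the 7 members with a window and no CHR core rose, with a median of 0.16. In Srsf2 mutated against wild type, 17 of the 26 fell and 3 rose, against 5 and 1 of the 7. For the difference between the Setd2 effects the medians were 0.33 and 0.31. These are descriptions of small groups, and a difference between them was not tested.

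The authors' deposited tables for the single mutants call 3 members higher and 17 lower in Setd2 knockout against wild type, of which 3 and 15 were also called here. For Srsf2 mutated against wild type the authors' deposited table calls 6 higher and 25 lower, of which 5 and 25 were also called here.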

How the data were processed

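The 39 members, their role groups, the other lists and the rule for naming genes were chosen with earlier results of these data known. The files were 3 deposited tables with 2 groups in each; the 3 single-cell samples were not used. Tests used the deposited count columns, whole numbers of reads per gene that the file headers name. The deposited FPKM columns were within 1% of the counts over gene length and library total, and served for levels per length. The authors' log2 fold changes with standard errors, and the authors' p-values and adjusted p-values, were read from the deposited tables and are printed only where named. The submitters' processing notes name the aligners STAR 2.6.1a and HISAT2 2.0.5, the counters featureCounts 2.0.1 and HTSeq 0.9.1, and DESeq2 1.22.2, with mouse (mm10, GRCm38) and human builds, without tying a tool to a step. Strandedness is not given in the sources used here.

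Rows were matched between tables by Ensembl identifier (55421 genes); 5 libraries stand in a pair of tables with identical counts, 0 columns were left unassigned, and 27 symbols turned into dates were restored. Genes were filtered by filterByExpr and scaled by TMM in edgeR 4.0.16 (R 4.3.3, limma 3.58.1). A quasi-likelihood model with a term per group was fitted over all 10 libraries, with Benjamini-Hochberg adjustment over 19289 genes; the procedure was tested on simulated data. Alternatives were median-of-ratios and upper-quartile scaling, no filter, a filter of at least 5 CPM in 2 libraries, the compared groups alone, DESeq2 1.42.0, the replicate number as a block, and leaving out each library. Plain library totals in place of TMM were added after the results were known. Positions are from GENCODE M21 (GRCm38), which held 99.83% of tested genes.

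Values in each library are given for Mki67, Cdk1 and Ccnb1 and for up to 4 members of smallest adjusted p per comparison and direction. Of the other cell cycle lists, up to 2 genes per direction of smallest adjusted p and at least 4 CPM were eligible. Further members were named by role after their values were seen.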

Additional observations from a re-analysis of the deposited data

Results flagged for a closer look

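The change with the Setd2 knockout label differed between the Srsf2 mutated and the Srsf2 wild type background in 21 of the 39 mitosis genes. That is 53.8% of the members, compared with 31.9% of all tested genes. The test was edgeR's quasi-likelihood test of the difference itself (adjusted p under 0.05, Benjamini-Hochberg over all tested genes). Sex-linked expression differed between these groups as well and cannot be told apart from genotype. On the log2 scale the difference was 1.30 for Ube2c, 1.16 for Aurka, 1.05 for Cdc25b, 0.93 for Plk1, 0.81 for Birc5, 0.70 for Cdc20 and 0.68 for Nusap1. It was 0.64 for Ccnb2, 0.60 for Cdca8, 0.59 for Tpx2, 0.54 for Hmmr, 0.52 for Kif2c, 0.51 for Mki67 and 0.49 for Bub3. The remaining values were 0.44 for Kif20a, 0.43 for Prc1, 0.36 for Ccnb1, 0.36 for Ccna2, 0.34 for Ect2, 0.33 for Bub1b and 0.30 for Cdk1. Mki67, Bub1b, Ccnb1, Ccna2, Cdk1, Kif20a, Prc1 and Ect2 lost this call under at least 1 alternative. On plain library totals, added after seeing the data, 9 of the 21 were called, while 8 other members were called negative. The part of the erythroid, neutrophil and progenitor markers that moved with genotype was not tested.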

How the results depend on the processing

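Where leaving out a library left 1 in its group, that library was assumed to vary like the other groups. For Setd2 knockout against wild type, leaving out 1 library gave 11 to 16 members called (2 to 5 higher, 9 to 13 lower) and 4792 to 5926 genes called in all. Members called higher there were 7 with upper-quartile scaling, 9 with the stricter filter and 5 in a fit of the groups compared. For Srsf2 mutated against wild type, 3 to 8 members were called higher when 1 library was left out, 9 with upper-quartile scaling, 9 with the stricter filter and 3 in a fit of the groups compared. For double mutant against Srsf2 mutated, leaving out 1 library gave 13 to 24 members called, of which 12 to 23 were higher, and upper-quartile scaling called 2 lower. For double mutant against Setd2 knockout, 17 members were called higher both with the stricter filter and in a fit of the groups compared. For the difference between the Setd2 effects, 2 members were called negative with upper-quartile scaling, 1 with the stricter filter, and 0 to 1 when 1 library was left out. Cdk1, not called in double mutant against Setd2 knockout, changed sign there with upper-quartile scaling (-0.0088) and without Setd2 knockout replicate 1 (-0.033), with a range of -0.033 to 0.059 when 1 library was left out. On plain library totals, added after seeing the data, members called higher and lower were 15 and 6 for Setd2 knockout against wild type. They were 9 higher for Srsf2 mutated against wild type, 12 higher and 2 lower for double mutant against Srsf2 mutated, 17 lower for double mutant against Setd2 knockout, and 9 positive and 8 negative for the difference between the Setd2 effects. There Ccnb1 in Setd2 knockout against wild type (0.0014), Cdk1 in double mutant against Setd2 knockout (-0.15) and the difference for Cdk1 (-0.020) changed sign. The difference between the Setd2 effects had 14 to 25 members called when 1 library was left out. Of all genes, 2392 were higher and 2400 lower in Setd2 knockout without its replicate 1, against 3603 and 3846 with it. The causes were not tested.

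Libraries with the same replicate number did not deviate together over 13 pairs (correlations from -0.03 to 0.04). Deviations were taken from group means, so those of a group of 2 libraries mirror each other and the pairs are not independent. Whether the numbers pair the samples cannot be settled from these correlations. With the replicate number as a block, the members called were 20 for the Setd2 knockout and 33 for the Srsf2 mutation alone (18 and 31 without the block). They were 21 for the double mutant set against Srsf2 mutated, 22 for the double mutant set against Setd2 knockout, and 23 for the difference between the Setd2 effects (20, 20 and 21 without the block).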
